A study of Homo sapiens with 18 samples.

Results

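The comparison described here set 3 libraries of A549 cells with a stable knockdown (KD) of S100A16 against 3 libraries of wild-type (WT) A549 cells, all 6 after exposure to 100 µM hydrogen peroxide (H2O2) for 2 h. These 6 libraries were chosen by their labels alone, out of 18 in the series. A549 is an established human lung adenocarcinoma line. The series also holds untreated WT and untreated S100A16 KD cells, used here as a second comparison of the same lines. Untreated hnRNPM and MagoHB knockdowns entered only the filter on low counts, the scaling and the estimate of the spread between libraries. Each of the 6 groups has 3 samples labelled as biological replicates, with nothing on cultures or days, so p-values measure the spread between these samples. The controls are wild-type cells and no line that carries only a vector is among the groups, so the KD itself and anything else that sets the knockdown line apart from WT cannot be told apart. How the knockdown was made, and whether the line grew from a single clone, is not stated by the labels. The title of the series names S100A16, alternative splicing and oxidative stress. The values are counts per gene, so isoforms were not analysed here.

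S100A16 belongs to the S100 proteins, small calcium sensors with EF-hand motifs that bind and regulate other proteins. Hydrogen peroxide crosses membranes, oxidises reactive cysteines of phosphatases and sensor proteins, and so activates mitogen-activated kinases and stress pathways. The first genes to respond encode short-lived transcription factors such as FOS and EGR1, whose transcription is switched on through serum response factor (SRF) without new protein synthesis. The transcription factor NRF2, which is constitutively active in A549 cells through loss of its inhibitor KEAP1, drives antioxidant and glutathione genes.

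Totals ran from 38068784 to 43694887 counts in the KD and from 37005520 to 46739682 in WT. Levels are CPM, each count scaled to a common library size by TMM, whose factors were 1.04 to 1.06 in the KD and 0.910 to 0.932 in WT. Scaling by total counts alone instead moved the median log2 fold change of all genes from 0.06 to 0.24, a shift of 0.18. Mitochondrial genes held 7.45% to 7.52% of counts in the KD and 9.22% to 9.72% in WT. No library of the 6 stood apart from its replicates, with a chi-square per degree of freedom of 1.63 to 2.92 between replicates (on halved counts, since most low counts are even). In the other groups 3 libraries did (MagoHB KD 2, hnRNPM KD 3 and the first untreated S100A16 KD library; 16.8 to 36.6 in pairs with them). Where leaving them out gives a call in the difference, that count is given too. Other counts below that move by 1.5 times or more are given as well, except some counts of few genes. Among keratins of lung epithelium, KRT8 and KRT18 were abundant, at 6098 and 2357 CPM in the KD against 3620 and 1464 CPM in WT (means). KRT7 was at 258 CPM in the KD and 503 CPM in WT. KRT19 was low, at 0.665 CPM in the KD and 1.07 CPM in WT. Defining genes of differentiated alveolar cells were near 0: NKX2-1 had 18 counts, SFTPC 9 and SFTPB 4 over the 6 libraries together.

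The targeted mRNA matched the labels. S100A16 (GRCh38 chromosome 1, 153606886 to 153613145) stood at 6.86, 7.37 and 6.56 CPM in the 3 KD libraries and 124, 118 and 129 CPM in the 3 WT libraries. The groups lay far apart, with 5.60% of the WT level left (log2 fold change -4.16, SE 0.12, adjusted p = 2.66e-15, edgeR). Of 18 S100 family members with a row, 12 passed the filter on low counts, and 0 were called higher and 4 lower in the KD (1 in the difference without the 3 libraries that stand apart). Besides S100A16 these were S100A6 (log2 -1.06, SE 0.06), S100A10 (-0.66, SE 0.07), which forms a complex with annexin A2, and S100A4 (-0.34, SE 0.06). Per unit of exon length, S100A6 was the most abundant member, at 464, 465 and 469 RPKM in the KD and 852, 828 and 882 RPKM in WT. S100A13, which shares exons with S100A1, had a log2 fold change of -0.02 (adjusted p = 0.787), and with scaling by totals it passed as higher (0.16, adjusted p = 0.0304). S100A14, the nearest S100 gene to S100A16, had means of 0.524 CPM in the KD and 0.564 CPM in WT, too low for a small change to be detectable.

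Of 22382 genes tested, 11759 (52.5%) differed between the KD and WT under H2O2 at an adjusted p under 0.05 (edgeR quasi-likelihood test, Benjamini-Hochberg over all genes). The KD was higher for 6241 (27.9%) and lower for 5518 (24.7%). For 14288 of the 22382 genes tested the KD and WT libraries under H2O2 did not overlap. Counting changes of at least 2-fold, 2361 genes were higher (10.5%) and 1099 lower (4.91%). By TMM scaling 53.1% of the calls were higher, and by total counts alone 70.0% (38.2% of all genes higher and 16.4% lower). Without the 3 libraries that stand apart 30.3% of 22638 genes were higher and 28.3% lower. Since 52.5% of all genes were called, the count of each list below is read against these shares.

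The 12 highest genes, by a rule that asked for a mean of at least 5 CPM and groups that do not overlap, held several products of interferon and inflammatory signalling. TNFSF14, the TNF-family cytokine LIGHT, was at 53.95, 49.1 and 57.1 CPM in the KD and 0.687, 0.919 and 1.17 CPM in WT (log2 5.86, SE 0.57, adjusted p = 1.78e-06). OLR1, which takes up oxidised low-density lipoprotein, was at 15.6, 17.1 and 16.3 CPM against 0.932, 1.15 and 0.816 CPM (log2 4.06). GBP3, an interferon-induced guanylate-binding protein, was at 78.3, 79.1 and 79.2 CPM against 6.94, 6.04 and 5.66 CPM (log2 3.66). In all 3 genes every KD library was far above every WT library, where the rule required groups that do not overlap. XAF1 (log2 3.61), an antagonist of the apoptosis inhibitor XIAP, RSAD2 (3.44), the antiviral protein viperin, and UBD (3.08), a ubiquitin-like modifier, followed. The others were the stathmin STMN3 (3.36), C14orf105 (3.33), the secreted binding protein IGFBP1 (3.21), trichohyalin TCHH (3.11), the phospholipase PLA2G4C (3.04) and vitronectin VTN (3.02). UBD shares exons with GABBR1, and RSAD2 with CMPK2, so reads of these pairs cannot be told apart without strand.

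Among the 12 lowest, CES1 came first. This carboxylesterase hydrolyses lipid esters and drugs, and stood at 0.394, 0.397 and 0.198 CPM in the KD and 18.1, 18.6 and 19.3 CPM in WT (log2 -5.79, SE 0.28, adjusted p = 7.45e-12). PPP2CA, the catalytic subunit of protein phosphatase 2A, was at 19.8, 20.3 and 19.9 CPM against 166, 161 and 164 CPM (log2 -3.03, SE 0.07), and the microRNA gene MIR3661, which lies within its exons, moved with it (-3.41). CAV1, the scaffold of caveolae, was at 32.8, 32.6 and 31.2 CPM against 231, 226 and 229 CPM (log2 -2.83, SE 0.06). All 3 WT libraries were above all 3 KD libraries in each of these, which the rule required, and the margin was wide. The imprinted RNA H19 (-3.41), TOMM5 of the mitochondrial import pore (-2.78), CHCHD5 of the intermembrane space (-2.67) and the PCNA-associated factor KIAA0101 (-2.58) also belonged here. The remaining 4 were S100A16 itself and 3 early response genes, EGR1, FOS and NR4A1.

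**Figure D1:**
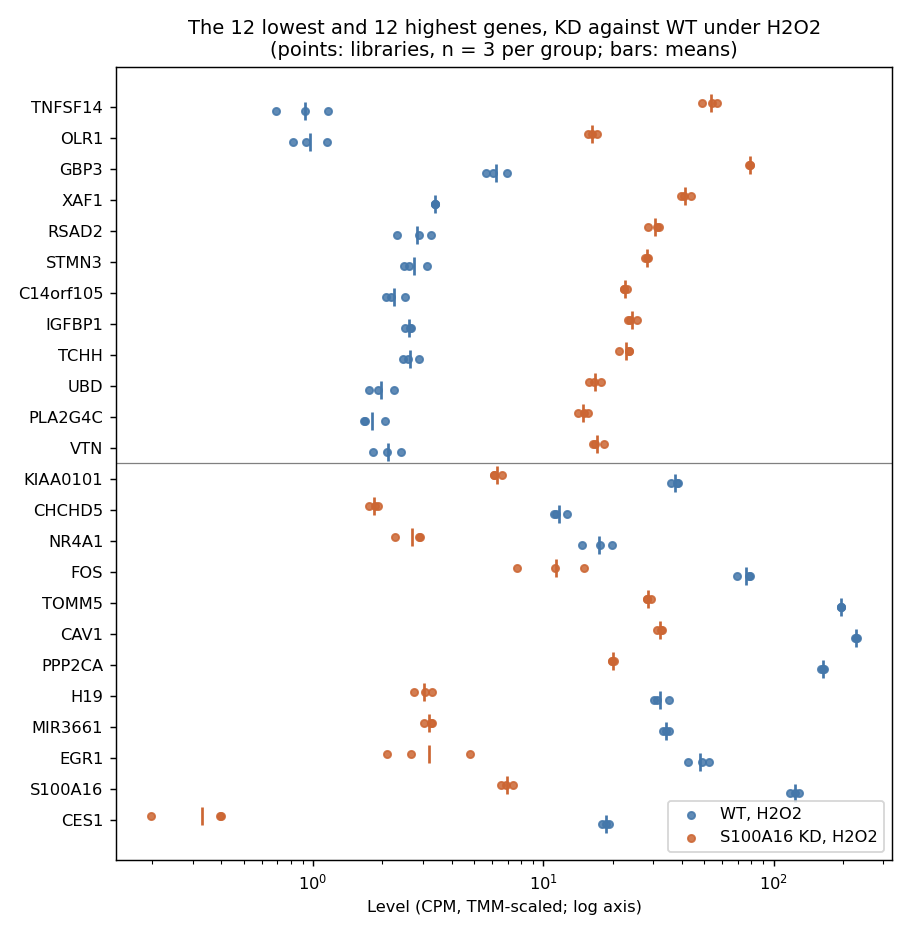
Levels (CPM, log axis) of the 12 highest and 12 lowest genes in each of the 6 H2O2 libraries, KD in orange and WT in blue, with bars at the means. The groups do not overlap for any of the 24 genes, which the rule required, and TNFSF14 and CES1 are the extremes at log2 5.86 and -5.79.

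The same lines without H2O2 gave a separate comparison, which shares no library with the one under H2O2. Untreated, 6168 genes were higher (27.6%) and 5545 lower (24.8%) in the KD. Of the genes called under H2O2, 83.4% were also called untreated in the same direction, and these 9807 genes were 83.7% of the untreated calls. Without the 3 libraries that stand apart, 28.2% were higher and 27.2% lower untreated, and 10836 genes were called in the same direction in both, 81.7% of the calls under H2O2 and 86.4% of the untreated ones. Among the 3460 genes that differed at least 2-fold under H2O2, 3389 had the same sign untreated. Of the 24 extreme genes, 21 had an untreated log2 fold change of the same sign and past the test, such as TNFSF14 (6.18), CES1 (-5.62), PPP2CA (-3.20) and CAV1 (-2.71). EGR1 (-0.10, adjusted p = 0.839), FOS (0.07, 0.767) and NR4A1 (-0.17, 0.394) were the 3 that did not pass untreated.

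The difference between both KD effects was tested directly, as an interaction, and 21 genes passed (0.0938% of those tested; 1134 at an unadjusted p under 0.05). The KD effect was lower under H2O2 for 17 of them and higher for 4. Without the 3 libraries that stand apart, 190 of 22638 genes passed (0.839%). Only 10 of the 1943 genes called under H2O2 and not untreated passed this test, so being called in a single condition was mostly not a tested difference. A further 9 genes were called in opposite directions under the 2 conditions, of which NR4A2, KLF10 and CLK1 passed the test of the difference. The other 6 did not pass it, namely MUC6, METTL18, CYR61, PHLDA1, PYM1 and MT-TW. PYM1, which removes exon junction complexes from mRNA, was at log2 0.15 under H2O2 and -0.14 untreated (adjusted p of the difference 0.555).

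**Figure D2:**
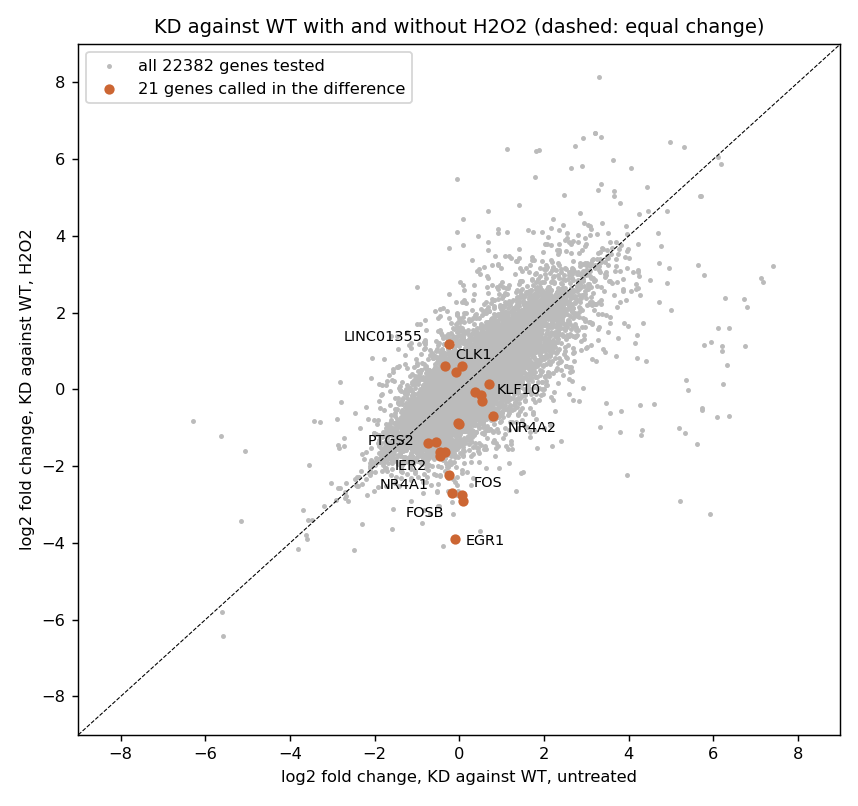
Each point is a gene, with the log2 fold change of KD against WT untreated on the x axis and under H2O2 on the y axis. Most genes lie along the dashed line of equal change, while EGR1, FOS, FOSB and NR4A1 lie near 0 untreated and from -2.69 to -3.91 under H2O2.

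Of the 21 genes called in the difference, 8 were on the list of early transcription factors and 2 on that of early feedback regulators. EGR1, a zinc finger factor, carries in its promoter the CArG boxes to which SRF binds, and so does the SRF gene. These are shown because EGR1 had the lowest value among the 21 and SRF itself did not pass it. Both stretches lie just upstream of the start site on the strand of transcription (RefSeq, GRCh38.p14), and capitals mark each CArG box:
EGR1, chr5:138465349-138465430, plus strand: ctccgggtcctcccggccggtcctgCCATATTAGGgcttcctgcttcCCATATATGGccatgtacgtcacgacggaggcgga
SRF, chr6:43171214-43171268, plus strand: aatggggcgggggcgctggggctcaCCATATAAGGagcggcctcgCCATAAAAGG
Boxes began 105 and 83 bases before the start site in EGR1 and 30 and 10 bases before it in SRF. Among 20 early transcription factor genes with a promoter in the table, EGR1 and SRF were the 2 with a CArG box between 250 bases before and 50 after the start. That share (95% interval 1.24% to 31.7%) stands against 1.29% of 27305 promoters. The CArG box did not stand alone, as a cAMP response element (TGACGTCA) was also in 2 of the 20, against 1.98% of all promoters. Of 13 genes called in the difference with a promoter in the table, 1 had a CArG box. Such matches of letters are not measured binding, and boxes outside this window, in FOS or other genes, were not searched.

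EGR1 stood at 2.104, 4.81 and 2.68 CPM in the KD and 49.1, 52.3 and 42.7 CPM in WT under H2O2. Without H2O2 it was at 1.43, 1.19 and 1.99 CPM in the KD and 1.79, 1.86 and 1.27 CPM in WT. Only the treated WT libraries were high, and the treated KD libraries lay above all untreated ones, by less than the treated WT libraries did. The log2 fold change of KD against WT was -3.91 (SE 0.28, adjusted p = 2.12e-08) and its difference from the untreated effect -3.81 (SE 0.44, adjusted p = 0.00137).

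FOS, a subunit of the AP-1 factor, was at 7.71, 15.1 and 11.2 CPM in the treated KD and 78.5, 79.3 and 69.6 CPM in treated WT. Its untreated levels were 7.37, 7.45 and 7.83 CPM in the KD and 6.78, 7.50 and 7.28 CPM in WT, so the lines overlapped before treatment and did not overlap after it. The log2 fold change under H2O2 was -2.74 (SE 0.17) and the difference -2.81 (adjusted p = 2.74e-05). FOSB, a close relative, was at 1.10, 1.37 and 0.694 CPM against 8.63, 8.71 and 6.36 CPM, and untreated at 0.986 ± 0.113 against 0.928 ± 0.278 CPM (mean ± SD, n = 3), with a difference of -2.99 (adjusted p = 1.5e-04). NR4A1, an orphan nuclear receptor, was at 2.28, 2.91 and 2.87 CPM against 17.6, 19.8 and 14.7 CPM, while untreated cells had 2.58 ± 0.549 and 2.90 ± 0.215 CPM (difference -2.52, adjusted p = 3.16e-06). In FOSB and NR4A1 the treated KD libraries were thus within the range of untreated cells or close to it. The feature RP11-1100L3.8 shares exons with NR4A1 and moved with it (-1.99).

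IER2, a short-lived nuclear protein, was at 11.2, 12.6 and 10.4 CPM in the treated KD and 33.1, 34.8 and 37.6 CPM in treated WT. ZFP36, which binds AU-rich elements and promotes decay of cytokine mRNAs, was at 9.55, 10.6 and 10.03 CPM against 33.3, 32.9 and 28.02 CPM. Both were already lower in the KD untreated, by log2 -0.34 and -0.46, and the gap was wider under H2O2 at -1.63 and -1.64 (differences -1.28 and -1.19, adjusted p = 9.48e-05 and 0.00230). PTGS2, the inducible prostaglandin synthase, was at 20.1, 22.1 and 21.2 CPM against 56.5, 51.8 and 54.2 CPM, with a difference of -0.82 (adjusted p = 8.92e-04). CTC-250I14.6, which shares exons with IER2, had a difference of -1.27.

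NR4A2 and KLF10, a nuclear receptor and a Krüppel-like factor, were higher in the KD untreated and lower under H2O2. NR4A2 was at 4.78, 5.34 and 6.27 CPM in the treated KD and 9.69, 8.50 and 8.16 CPM in treated WT. Untreated it was at 6.92, 6.86 and 6.43 CPM in the KD and 3.37, 4.68 and 3.53 CPM in WT. The groups did not overlap in either condition, with opposite order (log2 -0.69 under H2O2 and 0.80 untreated, difference -1.49, adjusted p = 0.00983). That call was lost in 4 of the 12 fits that left out 1 library, without S100A16 KD H2O2 1 or without WT H2O2 1, WT untreated 1 or WT untreated 3 (adjusted p up to 0.0648). KLF10 had log2 -0.30 under H2O2 and 0.54 untreated (difference -0.84, adjusted p = 8.92e-04), and the former was not called by total counts alone (adjusted p = 0.321).

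Smaller differences were called for the signalling feedback gene SOCS3 (-0.54), the cytokine LIF (-0.44), the small GTPase RHOB (-0.64) and IER3 (-0.84), with its overlapping feature XXbac-BPG252P9.10 (-0.88). These calls were sensitive to leaving out single libraries. IER3 lost its call in 12 of 12 fits without 1 library (adjusted p 0.120 to 0.187). SOCS3, LIF and XXbac-BPG252P9.10 lost theirs in 11 (up to 0.286, 0.129 and 0.205) and RHOB in 9 (up to 0.147). IER3 and XXbac-BPG252P9.10 were also not called by total counts alone. All of these genes kept the call when the 3 libraries that stand apart were left out together. SOCS3, LIF and RHOB did not differ between the lines under H2O2 by the test (log2 0.15, -0.07 and -0.14) and were higher in the KD untreated (0.69, 0.36 and 0.50). EEF1A1P13, a pseudogene of a translation elongation factor whose reads may come from near-identical copies, had a difference of -0.65.

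Of all 26 early transcription factors listed, 5 were higher and 10 lower in the KD under H2O2 (7 and 14 without the 3 libraries that stand apart), with a median log2 of -0.24 against 0.06 over all genes. Untreated, 13 of the 26 were higher and 2 lower (median 0.43). In the difference 8 of 26 were called, all lower, against 0.0938% of all genes, and 12 of 26 without the 3 libraries that stand apart, against 0.839%. The list was chosen with earlier results of these data known, so these shares describe it and are not an independent test. Of 24 feedback regulators such as dual-specificity phosphatases, 6 were higher and 6 lower under H2O2 (median -0.03; 7 higher and 2 lower with a median of 0.15 by total counts alone), and 9 higher and 2 lower untreated. In the difference 2 of the 24 were called, both lower. Without the 3 libraries that stand apart, 8 were higher and 9 lower under H2O2, 14 higher and 2 lower untreated, and 10 lower and 1 higher in the difference. Feedback genes higher in the KD included the ubiquitin-editing enzyme TNFAIP3 (log2 1.61), the growth-arrest gene GADD45A (1.63), NFKBIZ (1.17) and SPRY1 (0.94), each also higher untreated. The 5 higher early transcription factors under H2O2 included KLF4 (1.10), FOSL2 (1.32) and NR4A3 (0.91), so the FOS and NR4A families did not all move the same way.

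The 4 genes with a higher KD effect under H2O2 included 2 kinases of splicing factors. CLK1, which phosphorylates SR proteins, was at 70.8, 73.2 and 70.2 CPM in the treated KD and 45.1, 48.02 and 48.4 CPM in treated WT. Untreated the order was reversed, at 67.8, 64.6 and 59.1 CPM in the KD and 81.8, 78.4 and 82.6 CPM in WT. The log2 fold change was 0.60 (SE 0.06) under H2O2 and -0.34 untreated (difference 0.94, SE 0.09, adjusted p = 4.67e-06). CLK4 was at 37.8, 38.6 and 38.4 CPM against 29.4, 26.7 and 28.4 CPM under H2O2, and at 41.4 ± 1.82 against 43.9 ± 1.29 CPM untreated (difference 0.52, adjusted p = 0.00775). For both kinases the treated WT libraries were the low ones. The phospholipid enzyme LPCAT4 (0.55) and the RNA LINC01355 (1.43) were higher in the KD under H2O2 (log2 0.62 and 1.17) and not called untreated (0.07 and -0.25). Their calls in the difference were lost in 10 and 8 of 12 fits without 1 library (adjusted p up to 0.215 and 0.157).

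**Figure D3:**
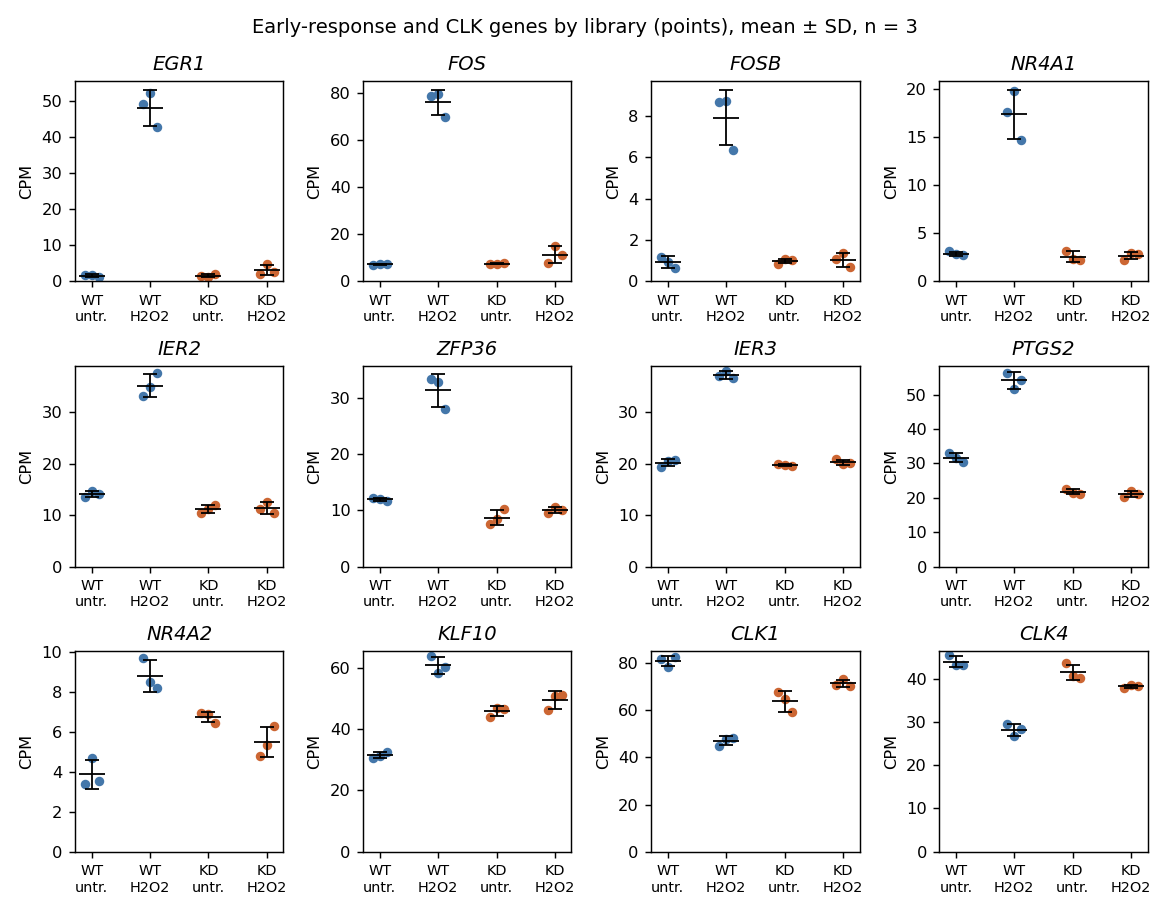
Levels (CPM, linear axes from 0) of 12 genes called in the difference, in every library of the 4 WT (blue) and S100A16 KD (orange) groups, with mean ± SD (n = 3). Treated WT is the high group for EGR1, FOS, FOSB and NR4A1 and the low group for CLK1 and CLK4.

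Most SR protein, hnRNP, exon junction and core spliceosome genes were lower in the KD under H2O2, while the kinases of splicing factors were split. Of 14 splicing-factor kinases 3 were higher and 5 lower (median log2 -0.04); by total counts alone 6 were higher and 2 lower, with a median of 0.15. PRPF4B (-0.48) and HIPK2 (-0.48) were lower and DYRK1B (0.71) higher. Of 18 SR proteins, which bind exonic enhancers, 2 were higher and 11 lower (median -0.37; 6 and 10 by total counts alone). TRA2B stood at 114, 119 and 120.3 CPM against 202, 199.9 and 198 CPM in WT (log2 -0.76), and SRRM2 (-0.71), SRSF10 (-0.55) and SRRM1 (-0.53) were lower too. SRSF8 (0.56) and SRSF6 (0.16) were higher, SRSF6 with a call lost in 5 of 6 fits without 1 library (adjusted p up to 0.266).

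Of 30 hnRNP proteins, which coat nascent RNA, 3 were higher and 22 lower (median -0.36; 3 and 15 by total counts alone). HNRNPU was at 1341, 1372 and 1266 CPM in the KD and 1983, 1926 and 1899 CPM in WT (log2 -0.55), and the splicing repressor PTBP1 was at log2 -0.58. The 3 higher members were PTBP3 (1.08), HNRNPUL2 (1.004) and HNRNPH2 (0.35). PTBP1 and its paralog PTBP3 thus had opposite signs, with PTBP3 at 48.5, 50.7 and 52.7 CPM in the KD and 24.7, 24.5 and 22.4 CPM in WT.

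Core spliceosome genes were lower in 33 of 35 cases and higher in 0 (2 by total counts alone), with a median log2 of -0.59 against 0.06 over all genes. SNRNP200, the helicase that unwinds the U4/U6 duplex, had the lowest value: 206, 208 and 189.6 CPM in the KD and 714, 696 and 613 CPM in WT (log2 -1.74, SE 0.07). SF3B3 (-1.23) and SF3B4 (-0.73) of the branch-site complex and SNRPB2 (-0.91) of the U2 particle were lower as well. Untreated, 32 of the 35 were lower, and 0 passed edgeR's test of the difference (1 without the 3 libraries that stand apart).

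Exon junction complex genes, which mark spliced junctions, were lower in 8 of 12 cases and higher in 0 (median -0.38; 3 higher and 6 lower by total counts alone). Without the 3 libraries that stand apart, 2 of the 12, 3 of the 30 hnRNP genes and 1 of the 18 SR genes passed the test of the difference, all with a higher KD effect under H2O2. RBM8A, the partner of the MAGO proteins, was at 159, 151 and 158 CPM against 308, 291 and 294 CPM (log2 -0.93, SE 0.07), though its exons overlap other features and reads may be shared. ALYREF (-0.87), MAGOH (-0.56, a near-identical copy of MAGOHB whose reads may be split) and PNN (-0.52) were lower. Of 16 nonsense-mediated decay genes 3 were higher and 7 lower (median -0.07; 7 higher and 5 lower with a median of 0.11 by total counts alone), and 2 passed the test of the difference without those 3 libraries, both with a higher KD effect under H2O2. GSPT1, the termination factor eRF3a, was at 96.5, 102 and 98.7 CPM in the KD and 403, 395 and 397 CPM in WT (log2 -2.01, SE 0.07), and its partner ETF1 at -0.63. UPF1, the central helicase of decay, was higher (0.19), but not called without WT H2O2 2 (adjusted p = 0.0637).

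Interferon-stimulated genes had the highest median of the lists with at least 8 tested members. Of 45 tested, 43 were higher and 0 lower in the KD under H2O2, 35 of them at least 2-fold (10.5% of all genes), with a median log2 of 1.71. Untreated the counts were also 43 and 0 (median 1.80), and 0 passed edgeR's test of the difference, also without the 3 libraries that stand apart. BST2, the tetherin that retains virions, was at 5.65, 5.65 and 6.04 CPM in the KD and 0.245, 0.368 and 0.466 CPM in WT (log2 4.01, SE 0.25). IFI44L was at 14.9, 15.9 and 18.6 CPM against 2.38, 1.91 and 1.95 CPM (log2 2.98), and PARP9, a partner of the ubiquitin ligase DTX3L with which it shares exons, at 104, 111 and 110.1 CPM against 32.6, 35.6 and 29.6 CPM (log2 1.73). None of these 3 genes had overlapping groups, as was the case for 14288 of the 22382 genes tested.

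Genes of antigen presentation on MHC class I moved the same way, with 18 of 20 higher and 1 lower (median 1.00). NLRC5, the transactivator of these genes, was at 5.96, 5.41 and 6.04 CPM in the KD and 0.809, 0.758 and 1.25 CPM in WT (log2 2.64). The immunoproteasome subunit PSMB8 was at 26.9, 27.8 and 30.7 CPM against 7.33, 7.24 and 8.45 CPM (log2 1.89), and PSME1 (0.98) and ERAP1 (0.81) were higher. The peptide transporter subunit TAP2 was the exception, at 14.8, 15.2 and 14.8 CPM in the KD and 30.1, 31.7 and 31.9 CPM in WT (log2 -1.07, SE 0.08).

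The promoters of these genes are shown because they share the interferon-stimulated response element, searched as GAAANNGAAA on both strands from 250 bases before to 50 after the start. The stretches below are from RefSeq (GRCh38.p14), read along the strand of the gene, with each match in capitals:
BST2, chr19:17405720-17405785, minus strand: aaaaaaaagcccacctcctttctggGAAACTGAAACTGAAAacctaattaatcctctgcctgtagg
IFI44L, chr1:78620259-78620409, plus strand: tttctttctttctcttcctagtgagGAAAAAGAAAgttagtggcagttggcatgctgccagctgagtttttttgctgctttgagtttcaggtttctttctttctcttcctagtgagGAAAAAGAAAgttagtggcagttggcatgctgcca
LGALS3BP, chr17:78979947-78980006, minus strand: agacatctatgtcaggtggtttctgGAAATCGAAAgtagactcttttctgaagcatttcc
IFI44, chr1:78649746-78649788, plus strand: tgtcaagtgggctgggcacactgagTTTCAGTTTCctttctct
HLA-F, chr6:29723253-29723312, plus strand: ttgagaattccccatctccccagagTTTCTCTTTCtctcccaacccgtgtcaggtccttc
TAP1, chr6:32853798-32853863, minus strand: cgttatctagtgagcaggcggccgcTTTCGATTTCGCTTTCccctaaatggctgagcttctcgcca
In BST2 and TAP1 overlapping matches run together, and IFI44L holds the same stretch at both matches. The element was present in 23 of 35 interferon-stimulated genes with a promoter in the table and in 9 of 16 genes of the MHC list, TAP2 among them, against 3.65% of all 27305 promoters. Across called genes it was in 4.41% of promoters of those higher and 2.59% of those lower in the KD, against 3.11% of tested genes. Among those changed at least 2-fold it was in 6.93% and 1.27%. This tilt was not particular to the element. AP-1 sites (TGANTCA) were in 6.3% and 3.66%, and in 8.88% and 3.29% at 2-fold, against 5.13% of tested genes. The cAMP response element leaned the other way (2.55% and 3.75%). These are matches of letters, not measured binding.

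Inflammatory cytokines and enzymes were higher in 16 of 25 cases and lower in 1 (PTGS2, above), with a median log2 of 1.14. In the difference 2 of the 25 passed, PTGS2 and LIF, and 7 without the 3 libraries that stand apart, all lower. Complement C3 was at 343, 323 and 354 CPM in the KD and 46.3, 49.8 and 48.4 CPM in WT (log2 2.82, SE 0.39), and IL18 at 87.1, 84.6 and 88.02 CPM against 41.8, 44.2 and 47.2 CPM (log2 0.96). The acute-phase genes SAA1 and SAA2, near-identical copies whose reads may be split, reached at most 1.39 and 2.80 CPM in the KD. Of 28 TNF-family and NF-kB genes 17 were higher and 3 lower (median 0.52), the death ligand TNFSF10 (2.01) and BIRC2 (0.50) among the higher. The 3 lower were the decoy receptor TNFRSF10D, at 9.47, 9.97 and 9.91 CPM in the KD and 27.5, 27.3 and 26.3 CPM in WT (log2 -1.47), TRAF3 (-0.45) and TNFRSF12A (-0.46; adjusted p = 0.061 without S100A16 KD H2O2 1, and not called by total counts alone).

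Peroxide defence did not move as a block. Of 31 NRF2 and glutathione genes 4 were higher and 20 lower in the KD (median log2 -0.46), and untreated 5 and 20. FTH1, the ferritin heavy chain that stores iron, was at 909, 932 and 969 CPM in the KD and 1649, 1688 and 1806 CPM in WT (log2 -0.87, SE 0.07). HMOX1, heme oxygenase, was at 15.4, 14.1 and 15.4 CPM against 23.3, 25.5 and 23.6 CPM (log2 -0.69), and TALDO1 (-0.82) and CBR3 (-1.30) were lower. The selenium-dependent peroxidase GPX2 was the reverse, at 7.98, 10.02 and 8.84 CPM in the KD and 2.67, 2.78 and 3.003 CPM in WT (log2 1.67).

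Aldo-keto and aldehyde enzymes were higher in 5 and lower in 12 of 20 cases (median -0.36). ALDH18A1, which makes a proline precursor, was at 7.08, 7.19 and 7.43 CPM against 23.9, 23.5 and 22.6 CPM in WT (log2 -1.69), and ALDH9A1 (-1.67) and ALDH3A2 (-0.87) were lower, while ALDH2 was higher (0.69). In the difference 1 of the 20 passed once the 3 libraries that stand apart were left out. Direct scavengers of peroxide and superoxide were split, with 10 higher and 9 lower of 25 (median 0.00; 13 and 8 with a median of 0.19 by total counts alone). Catalase (CAT), which destroys H2O2, was at 49.1, 51.7 and 50.6 CPM in the KD and 29.8, 31.8 and 32.6 CPM in WT (log2 0.68, SE 0.06), and GPX3 (1.39) and GPX8 (0.74) were higher. The mitochondrial thioredoxin TXN2 was lower (-0.64). Of 8 metallothionein and zinc genes tested, 3 were higher and 1 lower: MT2A stood at 68.3, 74.9 and 71.1 CPM against 32.7, 28.1 and 35.8 CPM (log2 1.152), and MT1F was under 1 CPM in all 6 libraries. The zinc transporter SLC39A14 was lower (-0.42), and SLC39A6 (0.18) lost its call in 5 of 6 fits without 1 library (adjusted p up to 0.138).

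Among chaperones of the heat shock response 5 of 23 were higher and 12 lower (median -0.27; 8 and 10 with a median of -0.09 by total counts alone). The constitutive chaperone HSPA8 was at 1490.1, 1501 and 1501 CPM in the KD and 2549, 2512 and 2641 CPM in WT (log2 -0.78), and the co-chaperones STIP1 (-0.95) and CHORDC1 (-0.76) were lower, as was HSPA1A (-0.70), a near-identical copy of HSPA1B. Genes of the unfolded protein response in the endoplasmic reticulum were higher in 11 and lower in 5 of 22 cases (median 0.12). DNAJB9, a co-chaperone of the lumenal chaperone BiP, was at 52.4, 56.3 and 57.1 CPM against 19.9, 20.4 and 19.4 CPM (log2 1.48), and XBP1 (0.87), HSP90B1 (0.49) and CALR (0.45) were higher. ATF4 targets were higher in 7 and lower in 9 of 25 cases (median -0.07; 9 and 4 with a median of 0.11 by total counts alone). The amino acid transporter SLC1A5 (-0.75) and the enzyme CBS (-1.03) were lower, and the receptor VLDLR was higher (1.98). The test of the difference was passed by 2 ATF4 targets and 1 heat shock chaperone without the 3 libraries that stand apart.

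Genes of proliferation were lower in the KD almost throughout. Of 45 DNA replication genes 43 were lower and 1 higher (median log2 -0.86), 13 of them lower at least 2-fold (4.91% of all genes). CDC6, the licensing factor, was at 116, 118 and 109.8 CPM in the KD and 239.8, 239 and 223 CPM in WT (log2 -1.03), and POLD2 (-0.90) and cyclin CCNE2 (-0.83) were lower. The related cyclin CCNE1 was the exception, at 27.9, 29.4 and 26.95 CPM against 17.5, 16.5 and 17.3 CPM (log2 0.72, SE 0.08).

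Mitotic genes were lower in 38 of 42 cases and higher in 0 (median -0.93), 18 of them at least 2-fold. Cyclin CCNA2 was at 22.9, 23.5 and 24.8 CPM in the KD and 70.6, 65.9 and 71.7 CPM in WT (log2 -1.55), the phosphatase CDC25B at 35.2, 34.1 and 36.1 CPM against 98.5, 99.5 and 99.1 CPM (log2 -1.49), and the checkpoint protein BUB3 at log2 -1.22. Untreated, 43 replication and 40 mitotic genes were lower, and 0 of either list passed edgeR's test of the difference (1 replication gene without the 3 libraries that stand apart). In bulk libraries, fewer cycling cells and less of these mRNAs per cell cannot be told apart. Of 14 replication-dependent histones tested 0 were higher and 5 lower (median -0.52; 1 higher and 2 lower by total counts alone, 2 higher and 9 lower without the 3 libraries that stand apart), and poly(A) selection captures these largely unpolyadenylated mRNAs poorly.

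Targets of p53, which is intact in A549 cells, were higher in 19 and lower in 3 of 26 cases (median 0.68; 20 and 5 without the 3 libraries that stand apart). RRM2B, a ribonucleotide reductase subunit for DNA repair, was at 51.2, 53.5 and 57.5 CPM in the KD and 22.5, 24.9 and 25.6 CPM in WT (log2 1.152), and TP53INP1 (1.60) and XPC (0.45) were higher. CCNG1 (-0.83), SESN1 (-0.64) and TP53I3 (-0.41) were lower, the last with a call lost in 4 of 6 fits without 1 library (adjusted p up to 0.0687). BCL2-family genes were higher in 9 and lower in 2 of 19 cases (median 0.24), from the pro-apoptotic BMF (7.23, 6.51 and 6.94 CPM against 1.08, 1.49 and 1.28 CPM, log2 2.42) to the anti-apoptotic BCL2L1 (0.65). Without the same 3 libraries, 2 p53 targets and 1 BCL2-family gene passed the test of the difference.

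All 75 ribosomal protein genes tested were lower in the KD, against 24.7% of all genes, and 71 of them by total counts alone. Their median was -0.61, and the range of -1.09 to -0.17 was narrow. RPS2 was at 424, 455 and 431 CPM in the KD and 932, 888 and 962 CPM in WT (log2 -1.09), and RPL32 at 163, 164 and 174 CPM against 319.6, 320.3 and 341 CPM (log2 -0.97). Reads of these genes may be shared with processed pseudogenes, of which 38.5% were lower and 4.37% higher over 1144 tested. In the difference 1 ribosomal protein gene passed without the 3 libraries that stand apart. Nuclear genes of oxidative phosphorylation were lower in 55 and higher in 1 of 75 cases (median -0.38; 36 lower and 6 higher by total counts alone), with COX8A (-1.72), COX6B1 (-1.06) and UQCRC1 (-0.997) lower and NDUFV3 (0.36) higher.

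Mitochondrially encoded mRNAs were lower in 9 of 13 cases and higher in 0 (median -0.30; 6 lower and 3 higher by total counts alone). MT-CO1 was at 7083, 7196 and 6965 CPM in the KD and 11032, 10504 and 10632 CPM in WT (log2 -0.60), and untreated at log2 -0.67. Mitochondrial tRNA genes were split by TMM scaling, with 9 higher and 8 lower of 22 (median 0.25), and untreated 3 and 9 (median -0.06). By total counts alone 12 were higher and 5 lower (median 0.43), and untreated 8 and 7 (median 0.17). Untreated and without the 3 libraries that stand apart, 5 were higher and 9 lower. MT-TT was at 38.2, 35.3 and 33.2 CPM against 19.5, 18.8 and 18.9 CPM (log2 0.90), and untreated at 39.1 ± 3.37 against 29.1 ± 0.363 CPM (log2 0.43), a difference that did not pass the test (adjusted p = 0.166). Without the 3 libraries that stand apart, 5 of the 22 tRNA genes and 4 of the 13 mRNAs passed it, all with a higher KD effect under H2O2. Reads over these short genes may come from the long precursor transcripts.

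Sterol and fatty acid synthesis genes were lower in 26 and higher in 3 of 33 cases (median log2 -0.76). INSIG1, which retains the sterol sensor SCAP in the endoplasmic reticulum, was at 3.81, 4.30 and 3.62 CPM in the KD and 20.3, 21.4 and 22.8 CPM in WT (log2 -2.46, SE 0.17). SREBF2, the transcription factor of the pathway, was at 12.5, 12.02 and 13.4 CPM against 28.4, 29.6 and 26.7 CPM (log2 -1.16), and FDPS (-1.31) and LSS (-0.99) were lower. The 3 higher were TM7SF2 (1.150), STARD4 (0.51) and ELOVL6 (0.26), the last called in 0 of 6 fits without 1 library (adjusted p up to 0.153). In the difference 1 of the 33 passed without the 3 libraries that stand apart. Glycolysis and hypoxia genes were mixed, with 11 higher and 14 lower of 33 (median -0.11, or 0.08 by total counts alone). GAPDH was at 1093, 1097 and 1102 CPM in the KD and 2217, 2121 and 2245 CPM in WT (50.02% of WT, adjusted p = 7.42e-10), and ENO1 (-0.75) and PFKFB3 (-1.24) were lower. ENO2, the neuronal enolase, had the opposite sign at 20.7, 19.1 and 20.8 CPM against 6.77, 6.39 and 6.33 CPM (log2 1.64).

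YAP and TEAD targets were higher in 11 and lower in 3 of 23 cases (median 0.26). ANKRD1 was at 458, 429 and 427 CPM in the KD and 90.3, 86.7 and 90.1 CPM in WT (log2 2.30), and AJUBA (1.12) and AXL (0.90) were higher. CYR61, a classical target, was lower (-0.34), in a call that 0 of 6 fits without 1 library kept (adjusted p up to 0.0913). The other lower members were DLC1 (-0.63) and YAP1 itself (-0.29; not called by total counts alone).

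Genes of TGF-beta signalling were higher in 14 and lower in 7 of 26 cases (median 0.47; 16 and 1 by total counts alone). The receptor TGFBR2 was at 213, 203 and 207 CPM against 67.1, 68.03 and 67.3 CPM (log2 1.62), and the latent binding protein LTBP1 at log2 1.51, while SMAD3 was lower (-0.47). Of 15 EGF receptor family genes 8 were higher and 4 lower (median 0.25), with ERBB3 at 39.8, 41.7 and 39.9 CPM against 16.3, 16.7 and 17.5 CPM (log2 1.26) and the feedback inhibitor ERRFI1 lower (-0.89). With the 3 libraries that stand apart left out, 3 of these 15 genes and 3 of the 23 YAP and TEAD targets passed the test of the difference, all with a lower KD effect under H2O2.

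Epithelial and mesenchymal genes did not take opposite sides. Of 25 epithelial genes 11 were higher and 3 lower (median 0.27), and of 30 mesenchymal genes 11 were higher and 7 lower (median 0.07; 1 in the difference without the 3 libraries that stand apart). The mucin MUC1 was at 9.18, 9.53 and 8.84 CPM in the KD and 1.64, 1.79 and 2.30 CPM in WT (log2 2.27), and the keratin KRT7 was lower (-0.96) while KRT8 (0.75) and KRT18 (0.69), which share exons in the table, were higher. SPARC, a matrix protein, was at 356, 341 and 365 CPM against 70.4, 64.9 and 71.5 CPM (log2 2.36), and the actin ACTA2 was at 1.85. Caveolar and protein phosphatase 2A genes were lower in 14 and higher in 2 of 23 cases (median -0.32; 15 and 4 without the 3 libraries that stand apart, 11 and 6 by total counts alone). Besides CAV1 and PPP2CA these included CAV2, at 50.9, 51.1 and 53.8 CPM in the KD and 84.1, 91.7 and 90.99 CPM in WT (log2 -0.78), and the regulatory subunit PPP2R2A (-0.64). Of the 2 higher, SDPR was under 1 CPM and PPP2R3C (0.18) lost its call in 5 of 6 fits without 1 library (adjusted p up to 0.182).

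**Figure D4:**
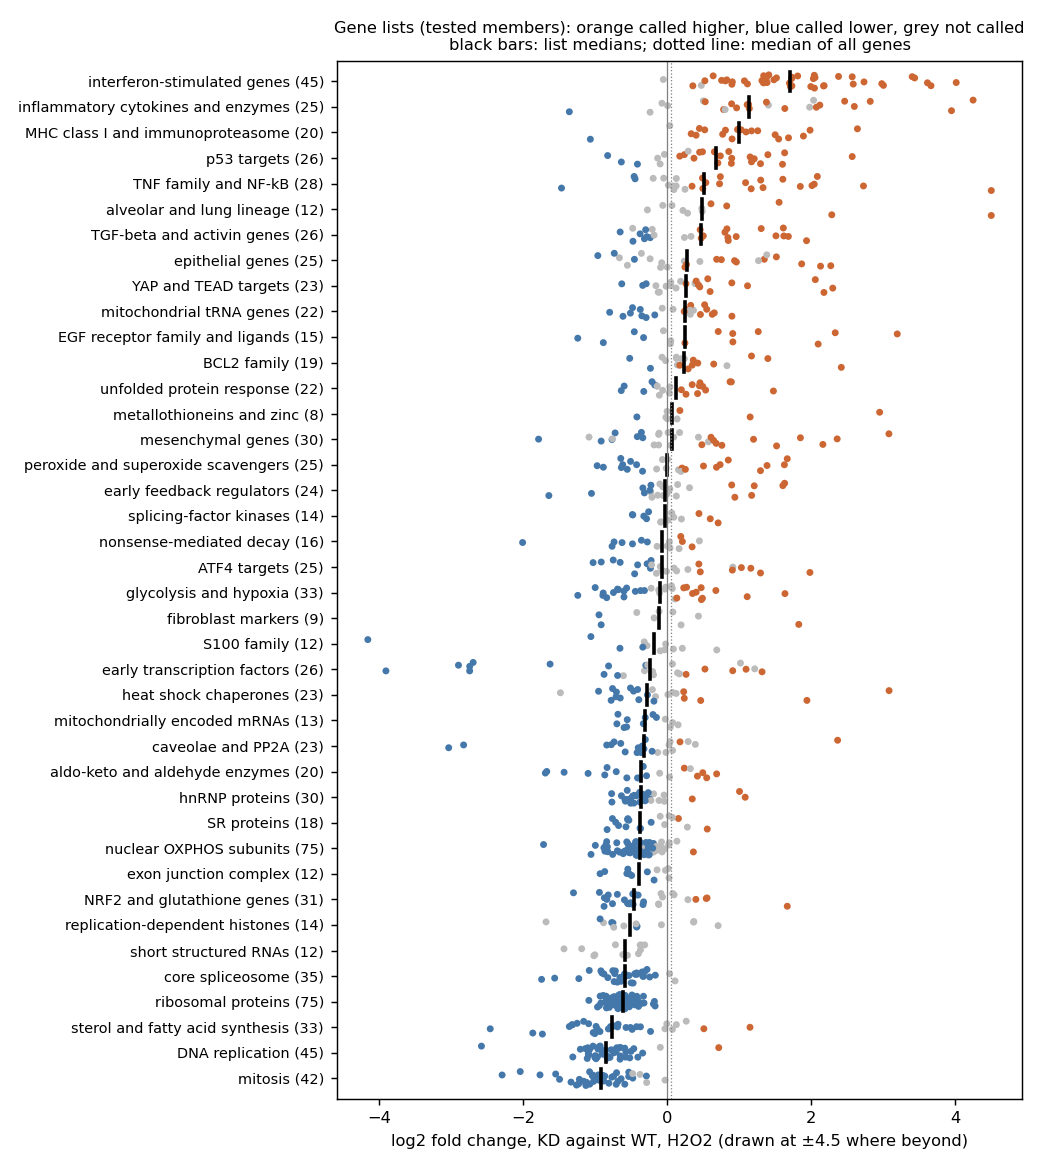
Log2 fold change of KD against WT under H2O2 for each tested member of every list with at least 8 tested members, sorted by list median (black bars). Interferon-stimulated genes have the highest median (1.71) and mitotic genes the lowest (-0.93), and the dotted line is the median of all genes (0.06).

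Markers of other cell types were few in these cells. Of 14 leukocyte markers 11 were under 1 CPM in both groups and CD3D was at 0 counts, and the summed level (148 to 159 CPM in the KD, 95.7 to 110.02 CPM in WT) came nearly all from CD68, a lysosomal gene whose call (log2 0.57) 0 of 6 fits without 1 library kept (adjusted p 0.0611 to 0.118). Of 10 fibroblast markers 6 were under 1 CPM, with sums of 49.6 to 57.3 CPM in the KD and 91.02 to 94.1 CPM in WT, mostly PDGFRA and COL1A1. Of 10 endothelial markers 8 were under 1 CPM, with sums of 19.7 to 22.7 CPM in the KD and 33.6 to 36.1 CPM in WT, from EGFL7 and ESAM. The integrin ITGAM, which marks myeloid cells, was at 6.57, 6.80 and 6.34 CPM in the KD and 1.55, 2.41 and 2.13 CPM in WT (log2 1.69), with PTPRC, LYZ and CD163 under 1 CPM. CD14, another myeloid marker, went the other way, at 0.570, 0.353 and 0.694 CPM in the KD and 1.23, 1.01 and 1.17 CPM in WT (log2 -1.08, adjusted p = 0.00188). The part of these markers, of the lung epithelial sum (8465 to 8975 CPM in the KD, 5443 to 5848 CPM in WT) and of the mitochondrial share in the other differences was not tested. Of 12 alveolar and lung lineage genes tested 5 were higher and 0 lower (median 0.48), such as the phospholipid enzyme LPCAT1 (0.83) and the lamellar-body transporter ABCA3 (0.61).

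Short structured RNAs, which poly(A) selection should remove, gave 0 calls in 12 tested under H2O2 (edgeR; 1 lower, and 2 lower in the difference, without the 3 libraries that stand apart). Untreated, 11 of the 12 were called higher, and their sum was 657 CPM in S100A16 KD untreated 1 against 49.02 and 58.3 CPM in its replicates. With the 3 libraries that stand apart left out, 4 of 11 were higher and 1 lower untreated. Among other classes of genes, 28.5% of 305 long intergenic RNAs were higher and 7.21% lower in the KD under H2O2. For 109 small nucleolar RNAs the shares were 0.917% and 21.1%, and for 14117 protein-coding genes 32.5% and 28.1%.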

How the data were processed

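Poly(A)-selected RNA of A549 cells was sequenced in 18 libraries, 6 of which form the comparison described here (S100A16 KD and WT, 100 µM H2O2, 2 h). The authors deposited a table of raw read counts per gene and a table of RPKM, in which each value equals the count divided by exon length and library total (tolerance 0.001, 100.0% of 531539 values above 0). Per the submitters' processing notes, reads were handled with HISAT2 2.2.1 and StringTie 2.1.4 on GRCh38; FastQC 0.11.9, DESeq2 1.32.0 and SAMtools 1.15.1 are also listed. The counting program, its strand setting and whether mates of a pair were counted separately were not given in the sources used. Of deposited counts from 1 to 19, 18.6% to 22.0% were odd, so most low counts are even. Overlapping, antisense and near-identical genes are therefore uncertain.

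The test on the counts was that of edgeR 4.0.16 (under R 4.3.3; TMM factors, filterByExpr, robust quasi-likelihood F test) over all 18 libraries in 6 groups, with Benjamini-Hochberg adjustment over 22382 of 44016 features, and an adjusted p under 0.05 was called. Contrasts were KD against WT under H2O2, the same untreated, and their difference. CPM are TMM-scaled, and RPKM served only to compare levels between S100 genes. Totals of 37005520 to 46739682 counts per library in the H2O2 groups limit the precision. The procedure was tried on simulated counts in which few genes changed, equally many up and down. In these data 52.5% of genes were called, so the simulation cannot show how the scaling performs here.

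The members and lists were chosen with earlier results of these data known. Named genes were S100A16, S100A13 and S100A14, the 12 highest and 12 lowest called genes with a known symbol, a mean of at least 5 CPM and non-overlapping groups, those with a symbol called in the difference, and from each of 42 lists up to 4 members of smallest adjusted p in the leading direction and 1 in the other (or all, where 3 or fewer). The 3 overlapping features without a symbol, the 9 genes with opposite calls, FOSL2, NR4A3 and single markers were named after their values were seen. Promoters are from RefSeq (GRCh38.p14), matched by symbol for 11709 tested genes. Alternatives were limma 3.58.1, DESeq2 1.42.0, other scalings, filters and library sets, a replicate block and leaving out 1 library.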

Additional observations from a re-analysis of the deposited data

Results flagged for a closer look

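The KD effect under H2O2 and the untreated KD effect differed, by the test of the difference itself, for 21 genes, given here as the log2 effect under H2O2 minus the untreated effect. EGR1 was at -3.81, FOSB at -2.99, FOS at -2.81 and NR4A1 at -2.52, with RP11-1100L3.8, which shares its exons, at -1.99. NR4A2 was at -1.49 and KLF10 at -0.84, both with opposite order of the lines in the 2 conditions. IER2 was at -1.28, its overlapping feature CTC-250I14.6 at -1.27 and ZFP36 at -1.19. IER3 was at -0.84, its overlapping feature XXbac-BPG252P9.10 at -0.88, PTGS2 at -0.82 and the pseudogene EEF1A1P13 at -0.65. RHOB was at -0.64, SOCS3 at -0.54 and LIF at -0.44. The positive values were those of CLK4 (0.52), LPCAT4 (0.55), CLK1 (0.94) and LINC01355 (1.43).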

How the results depend on the processing

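Of 238 named genes 231 were called under H2O2, and 211 of these were called in every one of the 17 alternatives (16 for 1 of them). Most named genes were chosen for a call or a small adjusted p in this same comparison, so these counts are not an independent check. S100A13 reversed to 0.16 by total counts alone, which also left 3667 genes called lower. The count of genes that differed under H2O2 ran from 10524 to 13263 over the alternatives, and from 10524 to 10684 without 1 library. The difference between both KD effects gave 256 genes with the 12 libraries of the 4 WT and S100A16 KD groups alone, 190 without the 3 libraries that stand apart, 45 with no filter beyond 1 count, 35 by DESeq2 and 13 to 17 without 1 library, against 21; the lowest count, 13, came without S100A16 KD H2O2 replicate 1 and without WT untreated replicate 3. The cause was not tested. With the replicate block over all 18 libraries 11653 genes were called under H2O2 and 20 in the difference, and with the block and the comparison's libraries alone 13124 and 425. Same-numbered KD and WT libraries had correlations of deviations of 0.064, -0.024 and 0.187. KD 1 and KD 2 correlated best with WT of another number, and KD 3 with WT 3. With 3 libraries a group, such weak correlations cannot decide whether the numbers pair the samples. The main test did not pair them. Depth limits low genes: S100A14 had 135 counts over the 6 libraries. No explanation of the early gene or CLK differences was tested, the knockdown line has no vector control here, and 2 h is the only time point.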
